A study of Mus musculus with 23 samples.

Results

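The genes described here are the 102 whose level separated libraries of repopulated microglia from libraries of microglia that had not been replaced, in mice of both ages together. They were chosen on that separation itself. Expected counts of a gene per 1e06 counts of its library (CPM) were compared in every pair formed by 1 of 11 repopulated and 1 of 12 other libraries, and a gene was taken when its mean was at least 5 CPM and at least 95% of the pairs, which is 126 or more, pointed the same way. Of 53090 genes in the tables, 10172 reached the floor of 5 CPM and 106 of these met the rule (1.04%). The rule leaves out 6 named genes, of which 4 met it, so that 102 remained, 28 higher and 74 lower in repopulated libraries. Because the difference between repopulated and other libraries chose these genes, that difference is given below as a description and carries no test. Tests are given for the age of the mice, for the numbering of the libraries, and for genes chosen at one age and read at the other.

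Poly(A) RNA was sequenced from microglia of female C57BL/6 mice in 4 groups, labelled Y, Y-re, O and O-re, read here as young, young repopulated, old and old repopulated. The repopulated groups (3 Y-re and 8 O-re libraries) had received PLX5622, an inhibitor of the receptor CSF1R, at 1200 ppm in AIN-76A chow, and the other groups (7 Y and 5 O libraries, called resident below) had received the same chow without it. The labels used here state neither the ages nor how long the drug and the recovery lasted, and they do not say which libraries came from separate animals, so that p-values measure the spread between libraries. The protocols describe CD11b magnetic selection followed by culture as well as sorting by flow cytometry, and the RNA extraction names sorted cells.

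Microglia are the macrophages of the brain parenchyma and need signals through CSF1R to survive. Blocking the receptor removes most of them, and once the drug is withdrawn the survivors divide and fill the brain again within weeks. Returning microglia are known to pass through a state that shares genes with microglia around plaques and lesions, such as Axl and Clec7a, before they settle. In bulk libraries, fewer cells of a kind and less RNA per cell cannot be told apart.

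The libraries carried the markers of microglia. Csf1r was at 6946 ± 411 CPM in Y (SD, n = 7), 6076 ± 571 in Y-re (SD, n = 3), 4614 ± 1331 in O (SD, n = 5) and 4238 ± 1633 in O-re (SD, n = 8), and P2ry12, Tmem119 and Cx3cr1 averaged at least 758 CPM in every group. Single libraries varied more: summed CPM of 19 homeostatic microglia markers were 47480 to 56806 in Y and 43384 to 49430 in Y-re. In old mice the sums were 19037 to 48795 in O and 17655 to 57444 in O-re. Library totals lay between 43.7 and 58.2 M expected counts (M, 1e06). Summed CPM of 15 monocyte markers were 435 to 2709 in Y, 1583 to 2626 in Y-re, 939 to 14736 in O and 784 to 16494 in O-re, and those of 12 markers of marrow-derived brain macrophages were 825 to 1206, 1453 to 2800.4, 1039 to 4597 and 1173 to 3521; their part in the results below was not tested. None of the monocyte or marrow-derived macrophage markers was among the 102 genes, where 1.04% of all genes past the floor met the rule. Both lists leaned higher in repopulated libraries over both ages, with 14 of 15 monocyte and 11 of 12 marrow-derived markers positive (median log2 differences 1.53 and 0.62). Fitted by edgeR, the medians were 1.63 and 1.01 in young mice and 0.28 and 0.05 in old mice. Titles number the libraries 1 to 24, and numbers 1 to 11 hold Y, O and O-re libraries, while numbers 12 to 24 hold all 4 groups and every Y-re library.

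Among the 28 higher genes, 9 encode proteins of the cytosolic ribosome and 5 are processed pseudogenes. Messenger RNAs for ribosomal proteins usually begin with an unbroken run of C and T, the 5′ terminal oligopyrimidine tract, through which growth signals control their translation. Their start regions are shown because this family is the largest with a shared function among the higher genes. RefSeq promoter windows (build GRCm38.p6, 250 bases before to 50 after the start) matched 69 of the 102 genes, 19 higher and 50 lower, and 8 of the 9 ribosomal protein genes. The longest C and T run within 30 bases of the annotated start is in capitals.
Rpl4, chr9:64173361-64173390, plus strand: gtgacaagTCTTTCCTTTTCCTgtgggagc
Rps25, chr9:44407684-44407713, plus strand: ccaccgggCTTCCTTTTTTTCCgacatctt
Rps18, chr17:33955649-33955675, minus strand: cacttccgCTCTCTCTTCCacaggagg
Rpl39, chrX:37085227-37085251, minus strand: gtcatccaTCCCCCCCTaagctccg
Rpl34, chr3:130730396-130730419, minus strand: acgcgccgCCTTCCCTgacgtact
Rpl23, chr11:97782408-97782429, minus strand: gggcggggCCTCCCgttcatat
Rps16, chr7:28350670-28350690, plus strand: aaagcccgCTTCTgtcgtgac
Rps19, chr7:24884556-24884576, plus strand: tttagccgCTCTCgcgagcac
A run of at least 8 bases was found in 5 of these 8 genes (62.5%), in 32 of 63 ribosomal protein genes with a window (50.8%), in 4 of 11 other higher genes (36.4%), in 13 of 50 lower genes (26%) and in 22.8% of 27025 windows of all genes. The match describes letters around an annotated start and not a measured start.

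Upstream sequence is shown for Tnfsf8 and Axl, which had the largest differences of the higher genes, for Mdfi, which had the largest of the lower genes, and for Nlgn2, which had the largest of the lower genes without any pair out of order. Each stretch is the 250 bases before the start. A set of 10 motifs was searched on both strands of the whole windows, and matches in these stretches are in capitals.
Axl, chr7:25788734-25788983, minus strand: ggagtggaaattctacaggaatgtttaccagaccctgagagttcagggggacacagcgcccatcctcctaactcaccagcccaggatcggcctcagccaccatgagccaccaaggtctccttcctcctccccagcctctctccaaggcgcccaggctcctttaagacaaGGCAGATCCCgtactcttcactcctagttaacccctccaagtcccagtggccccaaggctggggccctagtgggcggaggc
Tnfsf8, chr4:63861285-63861534, minus strand: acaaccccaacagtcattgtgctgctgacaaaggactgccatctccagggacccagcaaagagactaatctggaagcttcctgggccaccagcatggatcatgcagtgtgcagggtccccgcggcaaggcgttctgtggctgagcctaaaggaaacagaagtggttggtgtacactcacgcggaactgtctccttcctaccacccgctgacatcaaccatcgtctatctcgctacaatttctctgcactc
Mdfi, chr17:47834692-47834941, minus strand: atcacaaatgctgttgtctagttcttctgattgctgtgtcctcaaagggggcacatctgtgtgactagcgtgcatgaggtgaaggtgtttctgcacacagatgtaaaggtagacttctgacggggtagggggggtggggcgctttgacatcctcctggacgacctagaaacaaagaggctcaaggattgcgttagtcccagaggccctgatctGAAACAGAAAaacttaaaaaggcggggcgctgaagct
Nlgn2, chr11:69837785-69838034, minus strand: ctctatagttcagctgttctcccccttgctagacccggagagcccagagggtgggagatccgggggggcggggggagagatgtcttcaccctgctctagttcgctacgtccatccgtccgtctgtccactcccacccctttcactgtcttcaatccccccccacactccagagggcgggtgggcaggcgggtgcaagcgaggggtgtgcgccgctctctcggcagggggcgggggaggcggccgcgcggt
The capitals in Axl are an NF-kB motif, and those in Mdfi the interferon-stimulated response element, whereas the stretches of Tnfsf8 and Nlgn2 held none of the motifs. The windows of all genes include genes below the floor of 5 CPM, which all members passed. Motif shares among genes past the floor alone were not computed, so no enrichment is read from these shares. The NF-kB motif stood in 7 of 19 higher windows (36.8%) and 19 of 50 lower windows (38%), against 20.5% of all windows. The interferon-stimulated response element stood in 10.5% of the higher and 8% of the lower windows, against 3.49% of all. The cyclic AMP response motif TGACGTCA was in 0 of 19 higher and 4 of 50 lower windows (8%), against 1.88% of all. The other motifs were GAGGAAGT (PU.1), TGANTCA (AP-1), CACGTG (E-box), the MEF2 motif, CAGACA (SMAD), TGTGGTT (RUNX) and TTGCNNAA (C/EBP), each found in at most 16% of the windows of either direction and in at most 21% of all windows.

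The differences were modest for the higher genes and larger for the lower ones. On the log2(CPM + 0.5) scale, on which all differences between repopulated and resident libraries are given, the higher genes differed by a median of 0.38 (0.18 to 1.51), and 2 of them, Axl and Tnfsf8, differed at least 2-fold. The lower genes differed by a median of -0.69 (-0.17 to -2.56), and 28 of 74 differed at least 2-fold. The higher genes were also the more abundant, with a median of 276 CPM against 27.5 CPM for the lower genes and 35.0 CPM for all genes past the floor. The median difference of all genes past the floor was 0.0018. Every pair pointed one way for 10 of the 102 genes, namely Slc11a1, Ptpn9, Ergic1 and Gm6472 on the higher side and Nlgn2, AC152979.5, Prkce, Gab1, Tcf4 and Tnrc6b on the lower side, where 0.138% of all genes past the floor did so, 4 left-out genes included.

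**Figure D1:**
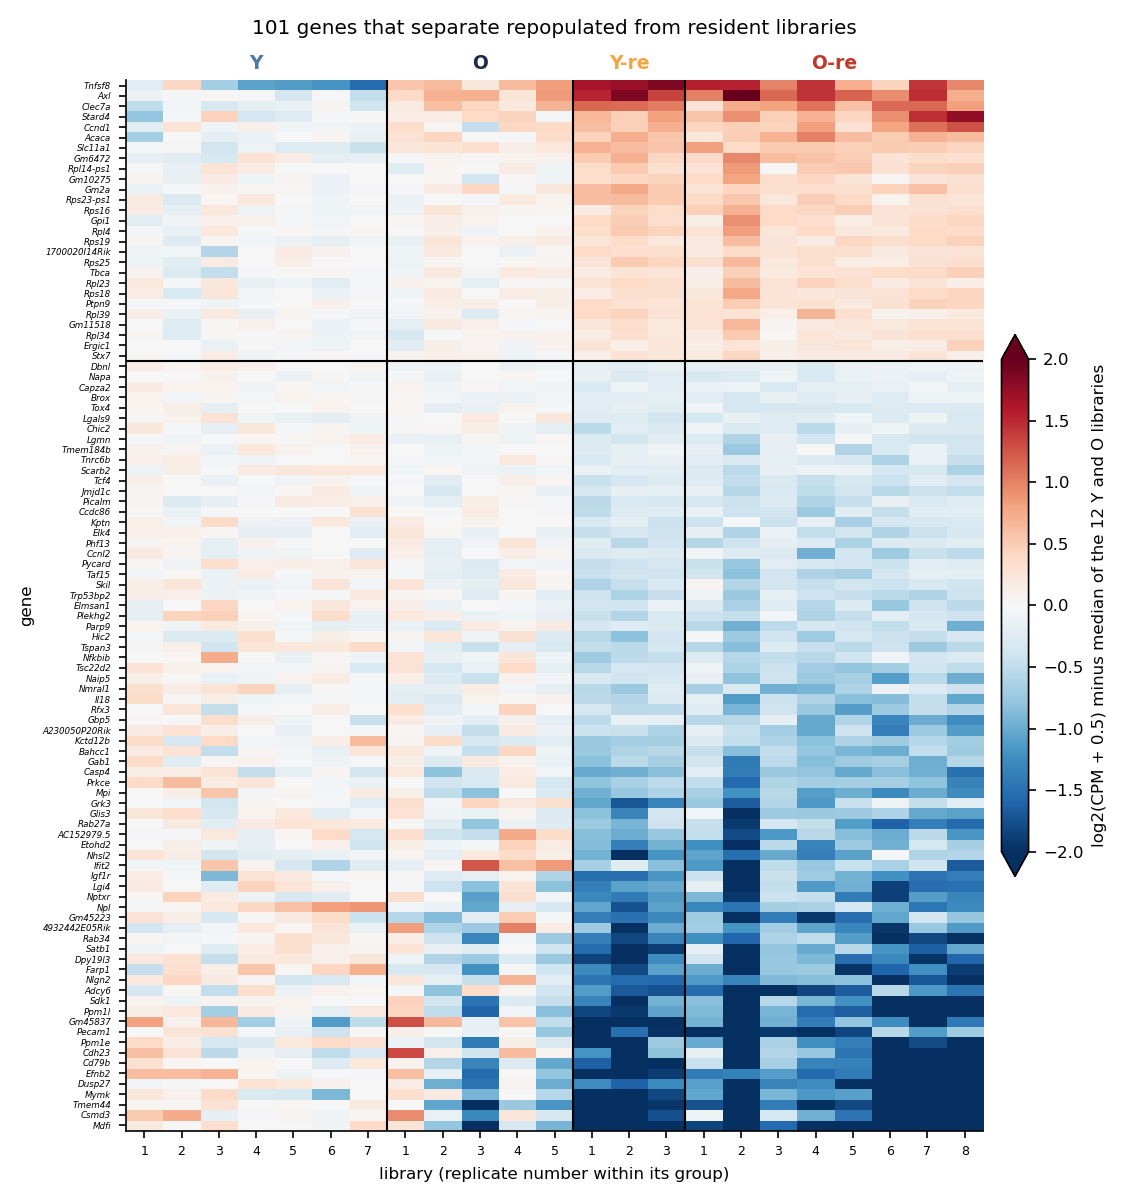
Each row is 1 of 101 of the genes, 1 ribosomal protein gene being left out, and each column 1 library, grouped as Y, O, Y-re and O-re; colour is log2(CPM + 0.5) less the median of the 12 resident libraries, cut at 2 in both directions. The higher genes stand above the black line and the 74 lower genes below it; O-re replicate 2 is the darkest column among the higher genes, and O replicate 3, a resident library, is blue in many of the bottom rows.

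Tnfsf8, Axl and Clec7a, surface proteins of immune cells, had the 3 largest differences on the higher side. Slc11a1, the gene of a metal transporter in the phagosome membrane (chr1:74375195-74386062, build GRCm38), was at 155 to 213 CPM in Y (median 178) and at 248, 255, 267, 227 and 244 CPM in O. Its values were 340.1, 322 and 314 CPM in Y-re and 273 to 373 CPM in O-re (median 299.8). Every repopulated library lay above every resident one, and among resident libraries all O values lay above all Y values.

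Axl, a receptor kinase that helps phagocytes take up dying cells (chr7:25757273-25788705), was at 222 to 314 CPM in Y (median 303), and at 407, 502, 506, 367 and 558 CPM in O. It reached 886, 1123 and 789 CPM in Y-re and 509 to 1225 CPM in O-re (median 694), a mean 2.23-fold that of the resident libraries. In all pairs but 1 the repopulated library was higher: 1 O library lay above the lowest O-re library. Clec7a, the receptor Dectin-1 for fungal glucans and a marker of plaque-associated microglia, showed the same order. Its values were 201 to 296 CPM in Y (median 248), 323, 432, 383, 325 and 458 in O, 629, 627 and 578 in Y-re and 347 to 635 in O-re (median 501), so that O and O-re overlapped while Y and Y-re did not.

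Tnfsf8, the ligand of the receptor CD30, had the largest difference of the higher genes. It was at 2.28 to 10.4 CPM in Y (median 3.37), 24.9, 26.4 and 29.1 in Y-re, 11.4, 12.1, 8.95, 12.1 and 14.0 in O, and 10.5 to 23.3 in O-re (median 18.5). The difference was 2.52 in young and 0.56 in old mice, and O and O-re overlapped. Gm2a, the activator of lysosomal ganglioside breakdown, was at 317 to 463 CPM in resident and 418 to 583 CPM in repopulated libraries.

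**Figure D2:**
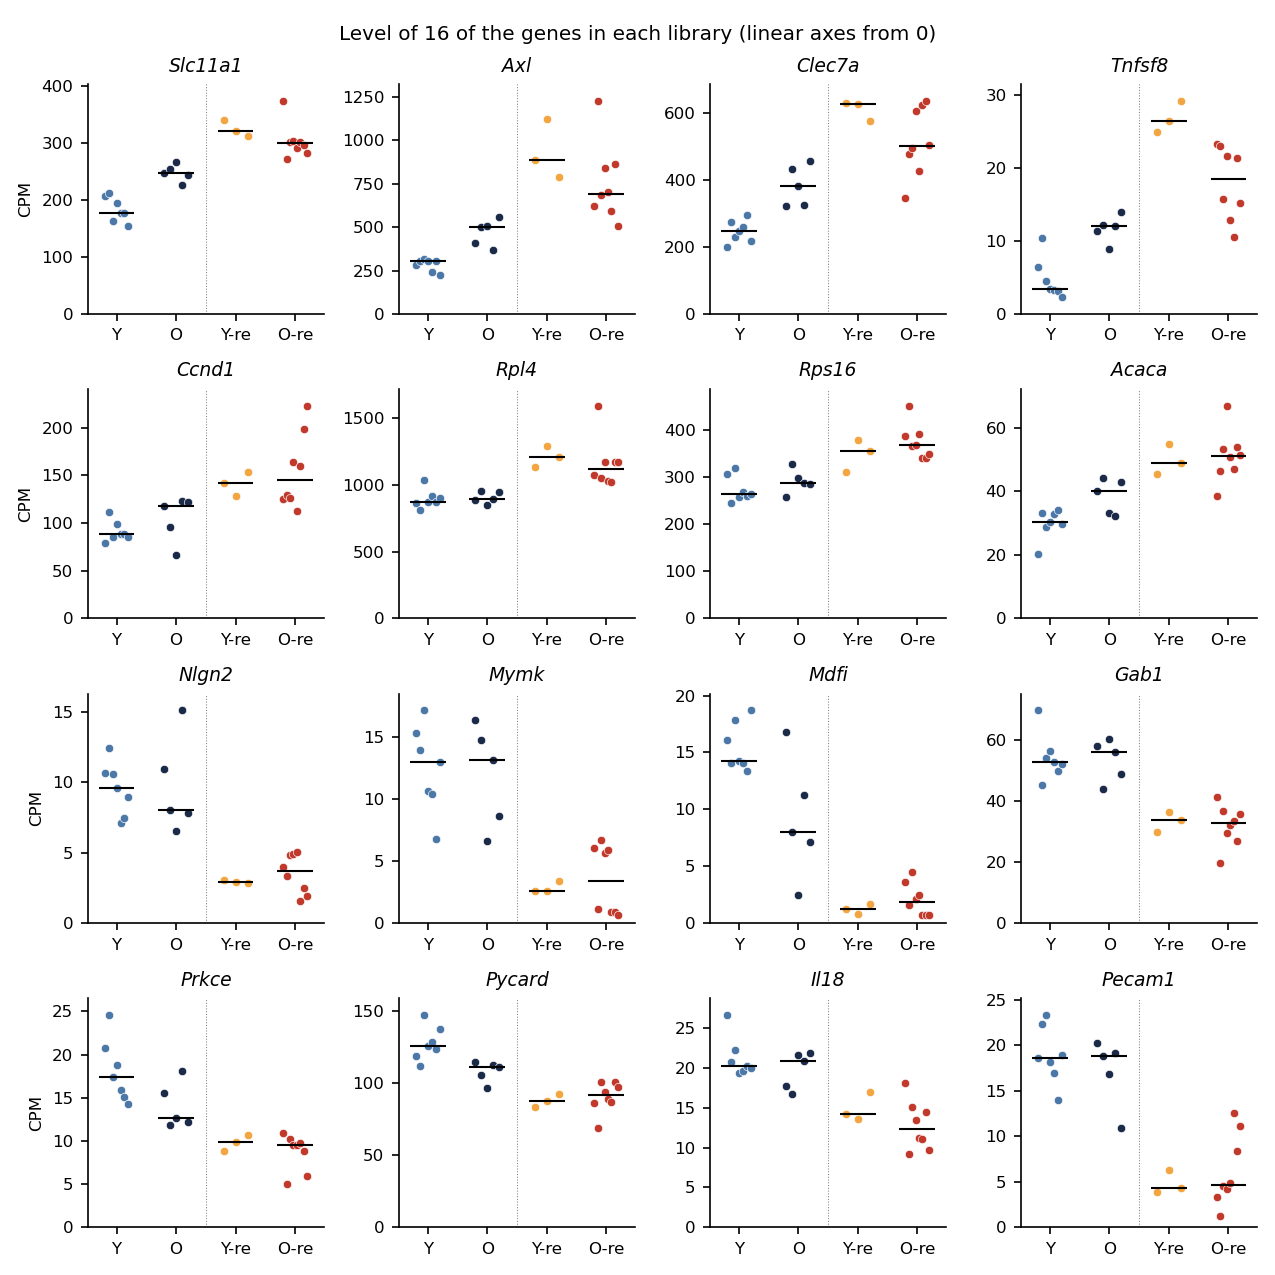
Each panel shows 1 gene, each point 1 library (7 Y, 5 O, 3 Y-re, 8 O-re), the bar the group median and the vertical axis CPM from 0. For Slc11a1, Nlgn2, Gab1 and Prkce no repopulated point crosses a resident one; for Slc11a1, Axl, Clec7a and Tnfsf8 the O points lie above most or all Y points.

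The 9 ribosomal protein genes differed by little and did so alike. Of these, Rpl4, Rps16, Rps25, Rpl34, Rps18, Rps19, Rpl23 and Rpl39 were 1.22 to 1.30 times as high in repopulated as in resident libraries. Rpl4 was at 814 to 1038 CPM in Y (median 872), 886, 956, 848, 898 and 949 in O, 1134, 1289 and 1213 in Y-re, and 1026 to 1593 in O-re (median 1121). Rps16 was at 245 to 320.0 CPM in Y (median 265), 257, 327, 298, 287 and 285 in O, 310.2, 378 and 356 in Y-re, and 340.0 to 451 in O-re (median 367). For Rpl4 a single resident library, Y replicate 3, lay above the lowest repopulated ones, and for Rps16 Y replicate 3 and O replicate 2 lay above Y-re replicate 1.

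Rps25 was at 278 to 365 CPM in Y (median 326), 306, 338, 324, 337 and 341 in O, 389.5, 469.6 and 440.0 in Y-re, and 362 to 514 in O-re (median 405). In each of these 3 genes O-re replicate 2 was the highest library. The members were the upper end of a family that leaned the same way: of 80 cytosolic ribosomal protein genes past the floor, 77 had a positive difference, with a median of 0.28, against 5129 of 10172 genes in all. The fitted median was 0.31 in young mice with 72 of 81 genes positive and 0.32 in old mice with 78 of 81 positive. The exceptions in sign were Rpl10, Rpl10a and Rps12.

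The summed level of 83 ribosomal protein genes was 22209 to 29392 CPM in Y (median 24144), 28826 to 33008 in Y-re (median 30970), 22589 to 26656 in O (median 24285) and 26442 to 38550 in O-re (median 28463). Within groups, the 9 member genes moved together, with a median Pearson correlation of 0.637 over 36 gene pairs and 23 libraries taken as deviations from their group means, against 0.230 over the 378 pairs of all higher genes. These correlations share library, scaling and family sequence and are given as a description. Reads of ribosomal protein genes are divided among many near-identical copies by the authors' counting, and Rps23-ps1, Rpl14-ps1, Gm6472, Gm10275 and Gm11518, the 5 processed pseudogenes among the higher genes, are uncertain for that reason. The 9 genes have short messenger RNAs, and the longest annotated transcript was 1907.5 nt at the median of the higher genes, 4506 nt of the lower genes and 3452.5 nt of all genes past the floor; without ribosomal protein genes and processed pseudogenes the higher median was 3773.5 nt. The part of transcript length in the result was not tested.

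The remaining higher genes serve growth, metabolism and membrane traffic. Ccnd1, cyclin D1, which drives the entry into the cell cycle, was at 78.7 to 112 CPM in Y (median 88.2), 118, 95.5, 66.4, 123 and 122 in O, 142, 128 and 154 in Y-re, and 113 to 223 in O-re (median 145). Young groups did not overlap, and the lowest O-re library lay below 3 O libraries. None of the 18 genes of the cell cycle list, which mark DNA replication and mitosis, met the rule, against 1.04% of all genes past the floor. Their median difference over both ages was -0.37, but the ages differed: fitted by edgeR, the median was -0.84 in young mice with 0 of 18 positive and 0.09 in old mice with 12 of 18 positive.

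Acaca, acetyl-CoA carboxylase, the committed enzyme of fatty acid synthesis, was at 20.3 to 34.1 CPM in Y (median 30.4), 40.3, 44.3, 33.2, 32.1 and 42.8 in O, 45.6, 54.8 and 48.9 in Y-re, and 38.6 to 66.9 in O-re (median 51.2). Stard4, a carrier of cholesterol between membranes, was near the floor, at 2.58 to 6.81 CPM in Y (median 4.64), 5.35, 5.35, 6.47, 6.69 and 4.65 in O, 7.87, 6.90 and 8.76 in Y-re, and 6.68 to 17.7 in O-re (median 8.78). Of 23 genes of sterol and fatty acid synthesis past the floor, 21 had a positive difference (median 0.19) and only these 2 met the rule, and of 27 genes fitted 21 were positive in young and 24 in old mice; Sqle, an enzyme of cholesterol synthesis, missed it with 125 pairs.

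Gpi1, a glycolytic isomerase, was at 246 to 307 CPM in Y (median 281), 293, 314, 299, 284 and 286 in O, 376, 399 and 361 in Y-re, and 309.7 to 538 in O-re (median 365), with 1 pair out of order. Ptpn9, a phosphatase bound to secretory vesicles, was at 30.4 to 34.5 CPM in Y (median 31.7), 31.8, 35.5, 35.4, 32.4 and 35.0 in O, 42.0, 40.0 and 39.0 in Y-re, and 36.5 to 46.0 in O-re (median 40.0). Ergic1, a protein of the compartment between endoplasmic reticulum and Golgi, was at 51.3 to 57.6 CPM in Y (median 56.5), 48.7, 61.4, 58.9, 53.7 and 60.2 in O, 67.9, 61.9 and 66.6 in Y-re, and 61.5 to 77.7 in O-re (median 64.3). In Ptpn9 and Ergic1 the groups did not overlap, although the gap in Ergic1 was 61.4 against 61.5 CPM. Stx7, a fusion protein of late endosomes, Tbca, a tubulin chaperone, and the noncoding 1700020I14Rik completed the higher genes.

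On the lower side, 9 genes are known for cell adhesion or for synapses, a grouping made after the members were known. A broader list of cell adhesion and guidance genes had 24 genes past the floor, of which only Efnb2 met the rule, with 10 positive and 14 negative differences. Nlgn2, which neurons use at inhibitory synapses (chr11:69823122-69837784), was at 7.09 to 12.4 CPM in Y (median 9.58) and at 10.97, 8.04, 6.55, 15.1 and 7.82 CPM in O. It was at 3.06, 2.87 and 2.805 CPM in Y-re and 1.55 to 5.02 CPM in O-re (median 3.66), and no repopulated library reached a resident one. Efnb2, a membrane ligand of Eph receptors, was at 8.07 to 14.4 CPM in Y (median 8.92), 13.4, 7.73, 2.64, 8.86 and 4.90 in O, 1.15, 1.74 and 1.96 in Y-re, and 1.07 to 3.79 in O-re (median 2.82), with O replicate 3 inside the repopulated range.

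Pecam1, an adhesion molecule of endothelium and leukocytes, was at 14.0 to 23.3 CPM in Y (median 18.6), 20.2, 18.8, 16.8, 19.1 and 10.9 in O, 3.91, 6.28 and 4.38 in Y-re, and 1.20 to 12.6 in O-re (median 4.70). The endothelial marker Cldn5 averaged 2.57 CPM in Y, 0.579 in Y-re, 0.912 in O and 1.23 in O-re, and the 12 endothelial and mural markers summed to 420.4 to 509 CPM in Y, 369.7 to 395 in Y-re, 351 to 434 in O and 277 to 439.8 in O-re. Their part in the difference of Pecam1 was not tested. Csmd3, Sdk1, Nptxr, Lgi4, Cdh23 and Farp1 made up the rest of the group. Csmd3, a large membrane protein of neurons, had the second largest difference of all (-2.09), and its O-re values overlapped both resident groups. The 10 neuronal markers summed to at most 12.3 CPM in any library.

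The lower genes also held 3 known from muscle, and Mdfi had the largest difference of all 102 genes (-2.56). Mdfi, an inhibitor of the myogenic regulatory factors (chr17:47815328-47834691), was at 13.4 to 18.7 CPM in Y (median 14.2), 16.8, 8.02, 2.47, 11.2 and 7.13 in O, 1.26, 0.757 and 1.70 in Y-re, and 0.656 to 4.48 in O-re (median 1.86), a resident mean 7.07 times the repopulated mean. Mymk, the membrane protein that lets myoblasts fuse, was at 6.77 to 17.1 CPM in Y (median 12.9), 16.3, 14.7, 6.62, 13.1 and 8.59 in O, 2.60, 2.61 and 3.34 in Y-re, and 0.644 to 6.68 in O-re (median 3.35). Dusp27, an atypical phosphatase of muscle, was at 18.5 to 23.3 CPM in Y (median 19.3), 21.5, 9.57, 6.64, 20.3 and 9.47 in O, 7.81, 5.97 and 7.68 in Y-re, and 0.752 to 8.84 in O-re (median 3.44). In all 3 genes the only resident library that crossed repopulated ones was O replicate 3. Of 16 muscle genes looked up after these had been seen, only these 3 and Mef2c passed the floor of 5 CPM.

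Signalling enzymes and adaptors formed another group of 9. Prkce, a protein kinase C, was at 14.3 to 24.6 CPM in Y (median 17.4), 15.6, 11.9, 12.6, 18.1 and 12.2 in O, 8.79, 9.89 and 10.7 in Y-re, and 5.00 to 10.98 in O-re (median 9.57). Gab1, an adaptor of growth factor receptors, was at 45.0 to 69.5 CPM in Y (median 52.7), 57.9, 43.9, 60.2, 56.0 and 48.7 in O, 29.8, 36.4 and 33.6 in Y-re, and 19.6 to 41.3 in O-re (median 32.7). Neither gene had an overlap between resident and repopulated libraries.

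Adcy6, an adenylyl cyclase, was at 6.94 to 12.9 CPM in Y (median 10.3), 9.67, 5.497, 12.99, 10.4 and 7.5002 in O, 4.31, 2.75 and 2.62 in Y-re, and 1.03 to 6.61 in O-re (median 2.96), with 1 pair out of order. The receptor Igf1r for insulin-like growth factor 1 was at 18.5 to 42.5 CPM in resident and 8.11 to 25.7 CPM in repopulated libraries. The group also held Grk3, which desensitizes G protein-coupled receptors, the phosphatases Ppm1e and Ppm1l, the exchange factor Plekhg2 and the NF-kB inhibitor Nfkbib. Skil, a repressor of TGF-beta signalling, was at 635 to 819.6 CPM in Y (median 662), 832, 636, 609, 809 and 717 in O, 448, 499 and 558 in Y-re, and 457 to 712 in O-re (median 526.2), and was the only gene of 17 in the TGF-beta list past the floor that met the rule.

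The parts of the inflammasome, the complex that activates inflammatory caspases, contributed 5 lower genes. Pycard, the adaptor ASC, was at 112 to 147 CPM in Y (median 126), 115, 106, 96.5, 113 and 111 in O, 83.9, 87.8 and 92.4 in Y-re, and 68.9 to 101 in O-re (median 91.6). Casp4, the caspase that senses intracellular lipopolysaccharide, was at 39.6 to 84.5 CPM in resident and 24.5 to 59.8 CPM in repopulated libraries. Il18, a cytokine that these caspases mature, was at 16.7 to 26.6 against 9.14 to 18.05 CPM.

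Naip5, a sensor of bacterial flagellin, was at 106 to 162 CPM in resident and 66.8 to 129 CPM in repopulated libraries, and Gbp5, a guanylate-binding protein, at 22.9 to 40.3 against 12.3 to 28.7 CPM. Of 19 inflammasome and pyroptosis genes past the floor, a list chosen after values were seen, 16 had a negative difference over both ages (median -0.30). The fitted median was -0.19 in young mice with 7 of 19 positive, and -0.22 in old mice with 2 of 19 positive. Gbp2 missed the rule with 125 pairs, and Mefv, Nlrc4 and Nlrp1a had positive differences over both ages. Ifit2, an interferon-induced protein, was at 99.6 to 224 CPM in Y (median 142), 136, 158, 359, 231 and 276 in O, 95.6, 128 and 84.7 in Y-re, and 25.5 to 115 in O-re (median 93.3). Parp9, part of the interferon-induced response to DNA damage, was at 115 to 147 CPM in Y (median 124), 119, 108, 146, 137 and 147 in O, 103, 109 and 106 in Y-re, and 65.5 to 106 in O-re (median 91.5). The mean difference was -1.54 in old and -0.48 in young mice for Ifit2, and -0.57 and -0.28 for Parp9. Of 16 interferon response genes 15 had a negative difference over both ages; the fitted median was -0.05 in young mice with 7 of 16 positive, and -1.10 in old mice with 0 of 16 positive.

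Transcription factors, chromatin and RNA proteins numbered 16. Tcf4, a basic helix-loop-helix factor, was at 153 to 181 CPM in Y (median 168), 163, 145, 169, 180.4 and 174 in O, 124, 134 and 139 in Y-re, and 119.8 to 144 in O-re (median 134). Tnrc6b, which links microRNAs to silencing, was at 71.9 to 85.4 CPM in Y (median 77.1), 75.4, 73.5, 73.5, 88.6 and 78.1 in O, 62.0, 68.4 and 69.0 in Y-re, and 49.5 to 70.0 in O-re (median 62.7). These differences were small and without overlap.

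Bahcc1, a chromatin reader, was at 8.24 to 14.6 CPM in Y (median 12.2), 13.6, 11.1, 8.46, 15.9 and 10.97 in O, 6.82, 7.62 and 7.84 in Y-re, and 5.75 to 8.45 in O-re (median 6.85). Elmsan1, a subunit of a histone deacetylase complex, was at 88.9 to 136 CPM in Y (median 107), 112, 94.3, 101, 99.4 and 93.9 in O, 78.5, 77.7 and 93.8 in Y-re, and 60.4 to 86.2 in O-re (median 74.0). Each had 1 pair out of order. Satb1, an organizer of chromatin loops, was at 8.25 to 13.8 CPM in resident and 1.47 to 9.54 CPM in repopulated libraries, the largest difference of these 16 genes (-1.31). The others were Glis3, Rfx3, Phf13, Elk4, Jmjd1c, Hic2, Taf15, Ccnl2, Tox4, Tsc22d2 and Skil, counted here as well.

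Of 24 lysosome and phagosome genes past the floor, Lgmn and Scarb2 met the rule. Lgmn, an asparaginyl endopeptidase and among the most abundant transcripts of microglia, was at 4434 to 5193 CPM in Y (median 4721), 4253, 4144, 4697, 4332 and 4784 in O, 3849, 3604 and 4001 in Y-re, and 3070.4 to 4579 in O-re (median 3687). Scarb2, the receptor that carries glucocerebrosidase to lysosomes, was at 505 to 643 CPM in Y (median 615), 519, 565, 518, 504 and 517 in O, 498, 473 and 465.8 in Y-re, and 353 to 506 in O-re (median 444). The list as a whole was close to 0, with a median of -0.06. Npl, a sialic acid lyase, and Tspan3, a tetraspanin, were lower as well.

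Cd79b, a chain of the B cell receptor that microglia also transcribe, was at 12.95 to 19.4 CPM in Y (median 15.97), 16.4, 10.2, 5.97, 12.9 and 7.44 in O, 4.67, 1.002 and 3.17 in Y-re, and 0.910 to 11.3 in O-re (median 4.49). The B cell markers Cd79a and Ms4a1 averaged at most 0.227 CPM in any group, and the 7 B cell genes summed to 160 to 236 CPM in Y, 87.6 to 119 in Y-re, 88.7 to 338 in O and 28.6 to 188 in O-re, most of it Ighm. Lgals9, galectin 9, was at 324 to 448 CPM in Y (median 351), 358, 367, 418, 365 and 428 in O, 305, 309 and 283 in Y-re, and 287 to 343 in O-re (median 309). Etohd2 was at 7.56 to 11.02 CPM in Y (median 10.0), 10.9, 9.52, 9.91, 14.1 and 11.2 in O, 5.28, 3.61 and 5.00 in Y-re, and 1.68 to 7.82 in O-re (median 5.44).

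AC152979.5 was at 5.06 to 8.76 CPM in Y (median 6.46), 8.52, 4.88, 4.65, 11.5 and 8.72 in O, 3.45, 3.10 and 3.73 in Y-re, and 1.57 to 4.56 in O-re (median 3.27), without overlap but by a gap of 4.56 against 4.65 CPM. Genes of traffic and the cytoskeleton were Rab27a, Rab34, Picalm, Napa, Capza2, Dbnl, Brox, Chic2, Kptn and Nhsl2. The last lower genes were Tmem44, Dpy19l3, Mpi, Trp53bp2, Nmral1, Kctd12b, Ccdc86, Tmem184b, Gm45837, Gm45223, 4932442E05Rik and A230050P20Rik. Picalm and Gm45223 start 2279 bases apart on chromosome 7, Rps16 and Plekhg2 8952 bases apart, and Napa and Kptn 21437 bases apart, and values of overlapping or neighbouring genes on opposite strands can share reads.

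The threshold of 126 pairs had no gap around it. Just inside stood Rpl23, Rpl39 and Stx7 on the higher side and Csmd3, Tmem44 and Sdk1 on the lower side. Just outside, with 125 pairs, stood 6 higher genes, among them Sqle (7.84 against 4.17 CPM on average), Itga9 (78.2 against 49.4) and Eef1a1 (8477 against 6698), and 9 lower genes, among them Tmc7 (7.17 against 26.0), Tgif2 (11.2 against 28.4) and Ikzf2 (3.05 against 7.31). In Tmem44 the resident libraries ranged from 9.58 to 56.4 CPM and the repopulated ones from 2.92 to 17.5, so that a large difference and a nearby threshold went together.

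None of 19 homeostatic microglia genes past the floor met the rule, which is near the share of 1.04% of all genes past the floor. Fcrls came closest with 89.4% of pairs lower. Over both ages all 19 had a negative difference with a median of -0.41, a value that pools 8 old of 11 repopulated with 5 old of 12 resident libraries. Within ages the fitted median was -0.16 in young mice with 4 of 19 positive and -0.09 in old mice with 5 of 19 positive, while in old against young resident mice it was -0.57 with 0 of 19 positive. Of 18 genes of disease-associated microglia, 11 had a positive difference over both ages, 13 in young and 15 in old mice by the fit, and Axl and Clec7a met the rule; Apoe was higher in 88.6% of pairs, and Csf1 was lower in 87.9%.

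**Figure D3:**
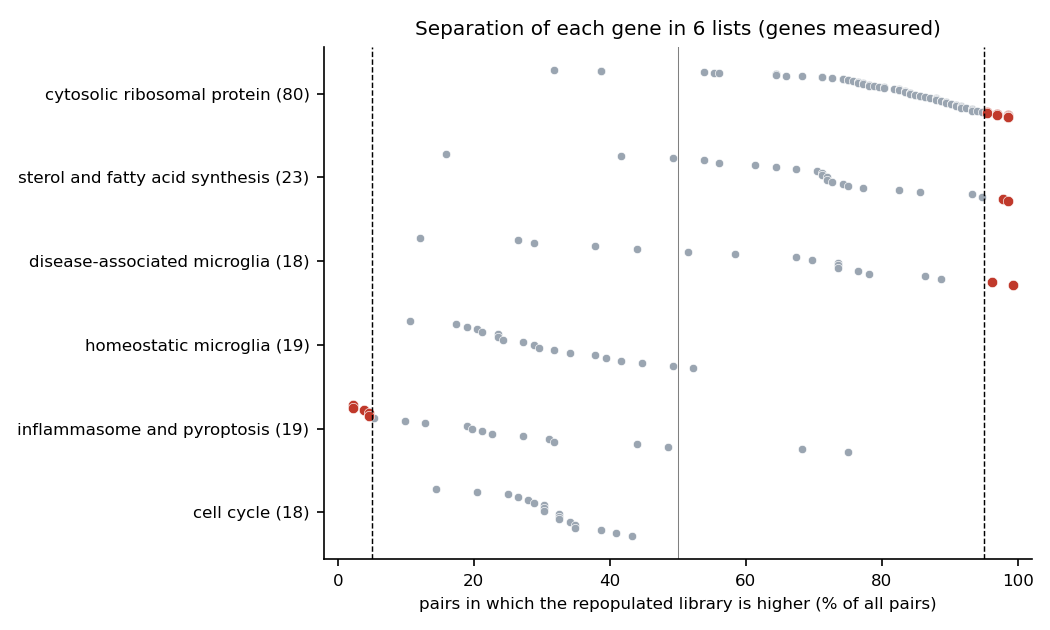
Each point is 1 gene of a list, placed by the share of pairs in which the repopulated library was higher, with the number of genes past the floor in parentheses; dashed lines mark 5% and 95%, and red points meet the rule. The shares pool both ages. Ribosomal protein genes crowd toward the right, with 77 of 80 differences positive, no homeostatic gene lies beyond 52.3% and no cell cycle gene beyond 43.2%, and the inflammasome list has 5 red points on the left.

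Some libraries took part in more of the exceptions than others. Over the 102 genes, 364 pairs pointed against the direction of their gene, spread over 92 genes. O replicate 3 took part in 111 of them (30.5%) and O-re replicate 1 in 104 (28.6%). O-re replicate 2 lay farthest from the resident libraries: on a scale where the resident median is 0 and the repopulated median 1, it stood at 1.74 for the higher and 1.54 for the lower genes. Leaving out O-re replicate 2, the rule found 108 genes including all 102.

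Other scalings kept every direction but not every gene. With library sizes scaled by TMM, 47 genes were higher and 54 lower, 81 of them shared with the 102, and with DESeq2 size factors 44 were higher and 52 lower, 79 shared. Of the 102, 28 higher and 53 lower genes kept 126 pairs under TMM, and the furthest below were Dbnl with 112 pairs, Tmem184b with 118, and Scarb2 and Napa with 119 each. No member changed sign under either scaling, and the median difference of all genes was 0.03 under TMM and 0.02 under DESeq2 size factors.

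The size of the difference in young and old mice is given as a description. Higher genes differed by a median of 0.42 in young and 0.31 in old mice, with 24 of 28 larger in young, and lower genes by -0.66 and -0.69, with 46 of 74 larger in young. From edgeR's fit of all groups, no count of calls in Y-re against Y or in O-re against O is given for the 102, because that difference chose them.

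**Figure D4:**
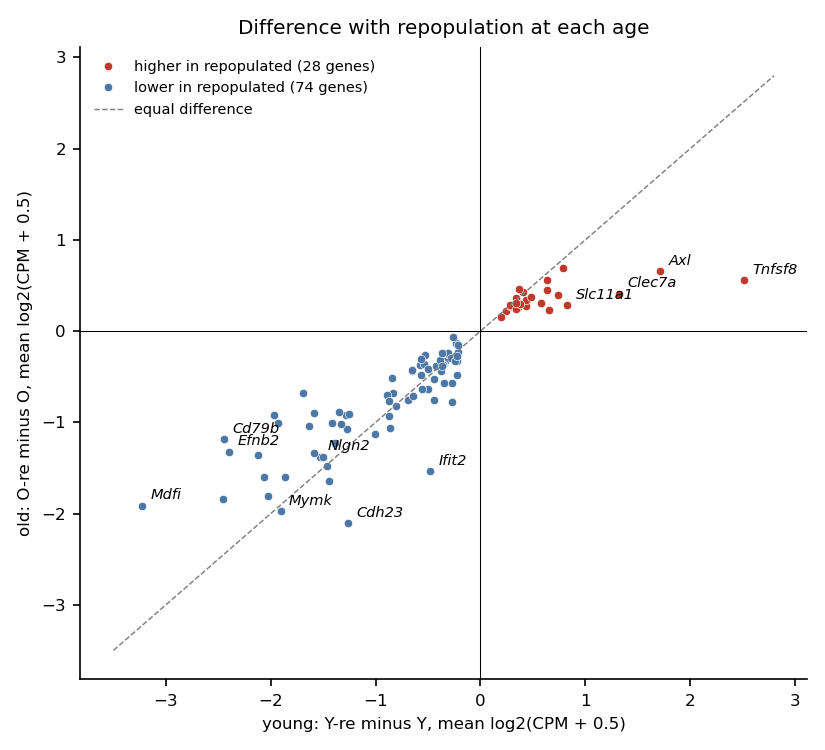
Each point is 1 gene, with the difference Y-re minus Y on the horizontal and O-re minus O on the vertical axis, both as mean log2(CPM + 0.5), and the dashed line marks equal differences. Points lie at the lower left or upper right because the rule chose them so; Tnfsf8, Axl, Clec7a and Slc11a1 lie below the line, with 2.52 against 0.56 for Tnfsf8, and Ifit2 and Cdh23 lie below it on the lower side.

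To test the separation on libraries that had not chosen the genes, the rule was applied to the old mice alone and the genes were read in the young mice. In the 13 old libraries, 246 genes met it, 87 higher and 159 lower, and 59 of these are among the 102, which is 24.0% of the 246 and 57.8% of the 102. In edgeR's quasi-likelihood fit of the 10 young libraries alone, 193 of the 246 (78.5%) had the same sign, against 58.5% of all genes past the floor. At an adjusted p under 0.05, 53 were called in the same direction and 1 in the opposite one, together 21.95% of the 246 against 7.5% of all genes tested and 10.5% of those past the floor.

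Of the 54 called genes, 39 are among the 102, whose choice had used the young libraries as well, and 15 are not. Fold changes of single genes from this fit are given as a description. The others included the ribosomal protein genes Rps4x (0.62, SE 0.10), Rplp2, Rpl32 and Rpl23a on the higher side, and on the lower side Col6a3, a chain of collagen VI (-2.57, SE 0.30), and the TGF-beta-induced factors Klf10 (-1.15, SE 0.16) and Klf11 (-0.67, SE 0.14); they were named after their values were seen. The count was 23 without Y-re replicate 2, 27 without Y-re replicate 1, 35 without Y-re replicate 3 and 34 without O-re replicate 2. Restricted to young libraries of numbers 12 to 24, where both young groups are present, 100 of the 246 were called, 95 in the same direction, against 17.4% of all genes tested.

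The exchange of ages gave another picture. In the 10 young libraries, which form only 21 pairs, 2362 genes met the rule, and 1672 of them (70.8%) had the same sign in the old mice, against 59.2% of all genes past the floor. None was called in edgeR's fit of the 13 old libraries alone, where no gene of 16220 was; 324 of the 2362 had an unadjusted p under 0.05, DESeq2 called 42 and voom with quality weights 5.

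Age was the other comparison that the rule did not use, although a gene had to lie on one side in both ages to be chosen. In old against young resident libraries, edgeR called 4 of the 102 genes, all of them higher in repopulated libraries and all higher in old mice. It called 2.83% of all genes tested and 3.82% of those past the floor, so the share of members was near that of genes past the floor. Most calls had this direction, with 2.6% of all genes tested higher and 0.235% lower in old mice. The 4 members were Slc11a1 (log2 fold change 0.42, SE 0.09, adjusted p = 0.00936), Tnfsf8 (1.29, SE 0.27, adjusted p = 0.0122), Clec7a (0.63, SE 0.14, adjusted p = 0.0176) and Axl (0.72, SE 0.17, adjusted p = 0.0198). Set beside this, the fitted difference of Y-re against the same Y libraries was 0.85 for Slc11a1, 2.53 for Tnfsf8, 1.34 for Clec7a and 1.75 for Axl; both comparisons share the Y libraries.

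For these 4 genes the median of O lay between those of Y and both repopulated groups. Of 15 monocyte markers, 10 were called higher in old resident mice with a median log2 fold change of 3.69, together with the summed levels given above, and their part was not tested. Without O replicate 3 only Tnfsf8 was called and without O replicate 5 only 2, Axl then having edgeR adjusted p = 0.0902 and 0.0739. Within library numbers 12 to 24 the fold change was 0.84 for Axl and 1.97 for Tnfsf8. Within numbers 1 to 11, with 3 Y and 2 O libraries, it was 0.57 for Axl and 0.71 for Tnfsf8, and edgeR called none of the 102 genes. None of the 74 lower genes was called by edgeR, where 0.235% of all genes tested were called lower in old mice; 8 had an unadjusted p under 0.05 and 57 of 74 had a negative fold change. DESeq2 also called Npl, Tspan3 and Dbnl, 7 in all, and voom with quality weights called 22. Shares of all genes are not given here for DESeq2, voom or unadjusted p, in this comparison or those below.

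Between the repopulated groups, calls for age depended on the fit. In O-re against Y-re edgeR called 0 of the 102 genes and 0 of 18720 in all; 7 had an unadjusted p under 0.05, the smallest adjusted p was 0.38, voom with quality weights called 8, DESeq2 called 0 and edgeR with the run of library numbers as a term called 2. The 4 age genes had fold changes of -0.11 (Slc11a1, SE 0.10), -0.59 (Tnfsf8, SE 0.31), -0.25 (Clec7a, SE 0.16) and -0.31 (Axl, SE 0.19), opposite in sign to those of the resident groups. Within library numbers 12 to 24, 25 of the 102 were called, against 36.3% of all genes called there.

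The difference of the repopulation effects between ages, an interaction, was called by edgeR for 0 of the 102 genes and for none in all; 12 had an unadjusted p under 0.05. Within library numbers 12 to 24, 12 of the 102 were called, against 8.87% of all genes. DESeq2 called 4 and voom with quality weights 4, and these were the same 4 genes, Slc11a1, Axl, Clec7a and Tnfsf8. They are also the 4 that edgeR called in O against Y, and both comparisons share the Y and O libraries. The interaction is built from the repopulated against resident differences that chose the genes, so its calls are given as a description. The fitted interaction was -0.53 (SE 0.13) for Slc11a1, -1.03 (SE 0.25) for Axl, -0.88 (SE 0.21) for Clec7a and -1.88 (SE 0.41) for Tnfsf8, with edgeR adjusted p between 0.32 and 0.34. The call for these genes thus changed with the test used.

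**Figure D5:**
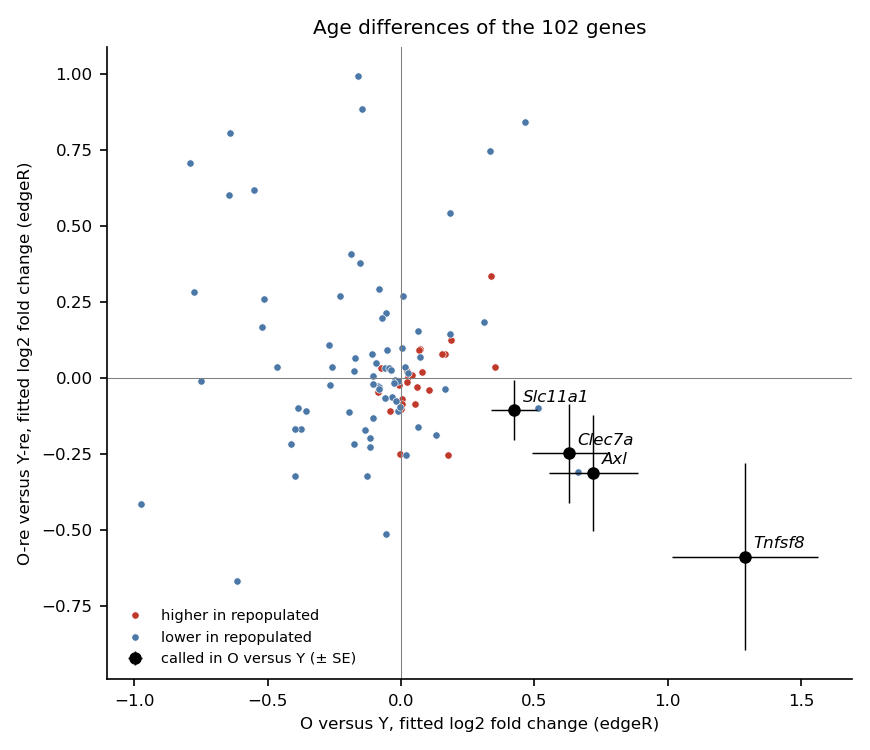
Each point is 1 of the 102 genes, with edgeR's log2 fold change of O against Y on the horizontal and of O-re against Y-re on the vertical axis; black points with SE bars are the 4 genes called in O against Y. These 4 lie at the right and below 0, from Slc11a1 at 0.42 and -0.11 to Tnfsf8 at 1.29 and -0.59. Of the other higher genes, Acaca (0.35 and 0.04) and Stard4 (0.34 and 0.33) lie farthest to the right.

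Some members differed between the earlier and later library numbers, whose meaning the labels do not state. With group in the model, edgeR called 12 of the 102 between library numbers 12 to 24 and 1 to 11, against 10.3% of all genes tested (5.66% higher and 4.61% lower in the later numbers) and 16.3% of those past the floor. The share of members was thus below that of genes past the floor. Rpl23 was the only higher gene (-0.19, SE 0.06, adjusted p = 0.0476). Of 11 lower genes, Efnb2 had the smallest adjusted p (-0.91, SE 0.17, adjusted p = 0.00387), Mymk (-1.34), Cdh23 (-1.12), Csmd3 (-1.37), Tmem44, Gm45837, Nlgn2 and Gbp5 were lower and Adcy6, Taf15 and Picalm higher in the later numbers. Of 81 cytosolic ribosomal protein genes tested, members or not, edgeR called 22 lower and 3 higher in the later numbers. Their median log2 fold change was -0.17. The part of the library numbers in the difference of that family was not tested.

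The pairs within a run of numbers are part of those that chose the genes. High shares there were partly fixed by the rule and are given as a description. Read within each run, 20 of the 28 higher genes kept at least 95% of pairs in numbers 1 to 11 and 28 in numbers 12 to 24. Of the 74 lower genes, 57 did so in the earlier and 67 in the later numbers. The lowest share of any higher gene in a run was 92%, and the lowest of a lower gene was 84%, for Lgmn in numbers 1 to 11.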

How the data were processed

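RNA of 23 libraries was sequenced, and the authors deposited for each library a table of expected counts per gene, with TPM beside them, made with STAR and RSEM on GRCm38 per the submitters' processing notes, which also name FastQC 0.11.5 and limma. The deposited TPM entered no comparison. The kit marks strand; the setting used in counting is not stated there. CPM were computed from the expected counts and library totals. For tests the expected counts were rounded and fitted with edgeR 4.0.16 in R 4.3.3 (quasi-likelihood, low-count filter, TMM, 1 coefficient per group, 18720 genes), with Benjamini-Hochberg adjustment over all genes tested and a threshold of 0.05. Alternatives were DESeq2 1.42.0 and its size factors, voom with sample quality weights (limma 3.58.1), no filter, library-number run as a term or as a restriction, other floors and shares of pairs, and leaving out each library. Of these, testing age in library numbers 1 to 11 and testing young libraries of numbers 12 to 24 alone were chosen after seeing the data. The scripts were tested on simulated data. Genes are named when they were among the 12 highest-ranked members in each direction by share of pairs, members called in an age or interaction test, members of the gene lists, or the 3 nearest the threshold on each side; others, and the lists of inflammasome, muscle, sterol and ribosomal genes, were chosen after their values were seen. Some results of single genes are not reported here. The members and lists were chosen with earlier results of these data known.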

Additional observations from a re-analysis of the deposited data

Results flagged for a closer look

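In 33 named genes the most extreme library of each group of 4 to 10 was compared with the others by Dixon's criterion, which chance meets in about 1 of 20 groups; 9 of 99 groups met it. O-re replicate 2 was high in 4 genes: Gpi1 at 538 CPM (others 309.7 to 379), Rpl4 at 1593 (1026 to 1173), Rps16 at 451 (340.0 to 391) and Rps25 at 514 (362 to 412). O-re replicate 1 was high in Slc11a1 at 373 CPM (others 273 to 304) and in Skil at 712 (457 to 560.1). Ergic1 was high in O-re replicate 8 at 77.7 CPM (others 61.5 to 68.6), Scarb2 was high in O replicate 2 at 565 (504 to 519), and Acaca was low in Y replicate 1 at 20.3 (28.7 to 34.1).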

How the results depend on the processing

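The rule gave 102 genes, 10 with every pair required, 345 at 90% of pairs, 418 in library numbers 1 to 11, 438 in numbers 12 to 24, 2362 in young and 246 in old libraries alone, and 104 to 223 with 1 library left out (223 without O replicate 3, 194 without O-re replicate 1). In old against young, 4 members became 7 with DESeq2, 22 with voom, 14 in numbers 12 to 24 (15.7% of all genes there), 0 in numbers 1 to 11, and 1 to 5 with 1 library left out. In O-re against Y-re, 0 became 8 with voom, 2 with the run as a term and 25 in numbers 12 to 24 (36.3% of all genes there). In the interaction, 0 became 4 with DESeq2, 4 with voom, 1 with the run as a term, 12 in numbers 12 to 24 (8.87% of all genes there) and 0 to 1 with 1 library left out (1 without Y replicate 2). Between runs, 12 became 7 without a filter and 3 to 15 with 1 library left out, with 3 without O-re replicate 6 or 8 and 5 without O replicate 1, O replicate 3 or O-re replicate 7. Of the genes chosen in old mice, 54 called in young became 92 with voom, 100 in numbers 12 to 24, 20 with every pair required, and 23 to 78 with 1 library left out; 35 were called without O-re replicate 4. Of those chosen in young mice, 0 became 42 with DESeq2 and 5 with voom. The cause of these changes was not tested. Counts by DESeq2, by voom or at unadjusted p have no share of all genes beside them and are not read as results about the members. Among these checks, sign was followed only for the fold changes of the 4 genes called in old against young, and none changed. No paired analysis was possible because the labels give no number that ties libraries of different groups to a shared animal, batch or day. Y-re has 3 libraries, all numbered 12 to 24, so that in numbers 1 to 11 no young comparison exists.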
